A study of Mus musculus with 19 samples.

Results

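Complement is a set of blood and cell-surface proteins that mark microbes and dying cells, and the 35 genes described here encode its components, receptors and regulators. They were taken from a list of complement genes, and each was read through the array probes whose RefSeq accession maps to it. They are 35 of the 20660 genes that the arrays name. All 35 had a probe, 45 probes in all, and 34 had a probe with a value on each of the 18 arrays and were tested. The exception, C1s1, lacked a value on 1 array and is described from the 17 others.

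The cells were fibroblasts grown out of 7 organs of adult mice aged 8 to 10 weeks: skin and tail, lung and heart, and liver, kidney and gonad. No strain, sex, genotype or treatment is given in the labels, which also do not say which gonad was used, whether an organ was digested with trypsin or with collagenase, or whether replicates came from separate animals. All groups shared 5 days of culture in medium with serum, so the 7 organs of origin are the groups compared and there is no untreated reference. Kidney and skin had 2 samples each and the other 5 organs 3 each. For lung replicate 2 no scanner output was used here, which leaves 18 arrays. The p-values measure the spread between these samples, which may be technical.

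The complement cascade is started by a classical, a lectin and an alternative route. In the classical route C1q, built from the products of C1qa, C1qb and C1qc, binds its target and activates the proteases C1r and C1s, which cleave C4 and C2. In the lectin route collectins and ficolins bind sugars and work through the proteases Masp1 and Masp2, and in the alternative route factor B and factor D act on C3 itself. All routes cleave C3 and then C5, which mouse gene Hc encodes, and end in the membrane attack complex of C6, C7, C8 and C9. Most circulating complement protein is made by the liver's hepatocytes and C1q mainly by macrophages and related cells, while fibroblasts are known to make C3, C4, C1r, C1s and several regulators.

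A level below is log2 of an array's background-subtracted spot intensity less the 75th percentile of that array, so 0 is the 75th percentile. The number of arrays, 3 an organ and 2 in kidney, lung and skin, limits the precision. Values of replicates are given in the order of their numbers. A difference is the mean of 1 organ less the average of the means of the 6 others, each organ weighted equally, in log2 units ± SE from limma, and a gene was called with an adjusted p under 0.05 over all 19723 genes tested and a difference of at least 1. Since the samples are bulk RNA, fewer cells of a type and less RNA per cell cannot be told apart. Probes differ in brightness, so levels are compared between arrays and not between genes.

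Gonad 3, heart 1, kidney 1, kidney 2 and tail 2 are called high-background arrays, because their negative control spots read outside the range the scanner software accepts. On them dim probes read high and bright probes low: the brightest 10% of genes had a median level of 2.56 to 5.13 there, against 5.35 to 5.69 on the 13 other arrays. Both kidney arrays are among them, and 35.4% of all genes were called higher and 42.3% lower in kidney, so a kidney call of any gene is read here as a value and nothing more. Of 12 fibroblast markers (Col1a1, Pdgfra, Dcn and others), 12 were well above background on all arrays of each organ but kidney, where 11 were. In kidney 12 of the 12 were called lower, and their summed linear level was 205 and 408 there, against 512 on heart 1 and 1530 to 2959 on the 15 others. The arrays lie on 3 slides, and differences are also given within a slide, against the organs on it.

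Of the 34 members with a complete probe, 16 were well above background on all 18 arrays, against 59.3% of all genes. These were C1qb, C1ra, Colec12, C2, C3, C4b, Cfb, Cfp, Hc, C8g, C5ar2, Serping1, Clu, Cd55, Cd59a and Cr1l. Another 17 were above background on 1 to 12 of the 13 other arrays, and C9 on none of them. By the F test over the 7 organs 17 of 34 were called, beside a background of 34% of all genes. They were C1qa, C1qc, C1ra, Colec11, Colec12, C2, C3, C4b, Cfb, Cfd, C8g, Cfi, Serping1, Clu, Cd55, Cd59a and Cr1l. The F test includes both kidney arrays, and Cfd, Cd55 and Cr1l were called in no organ contrast but that of kidney.

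**Figure D1:**
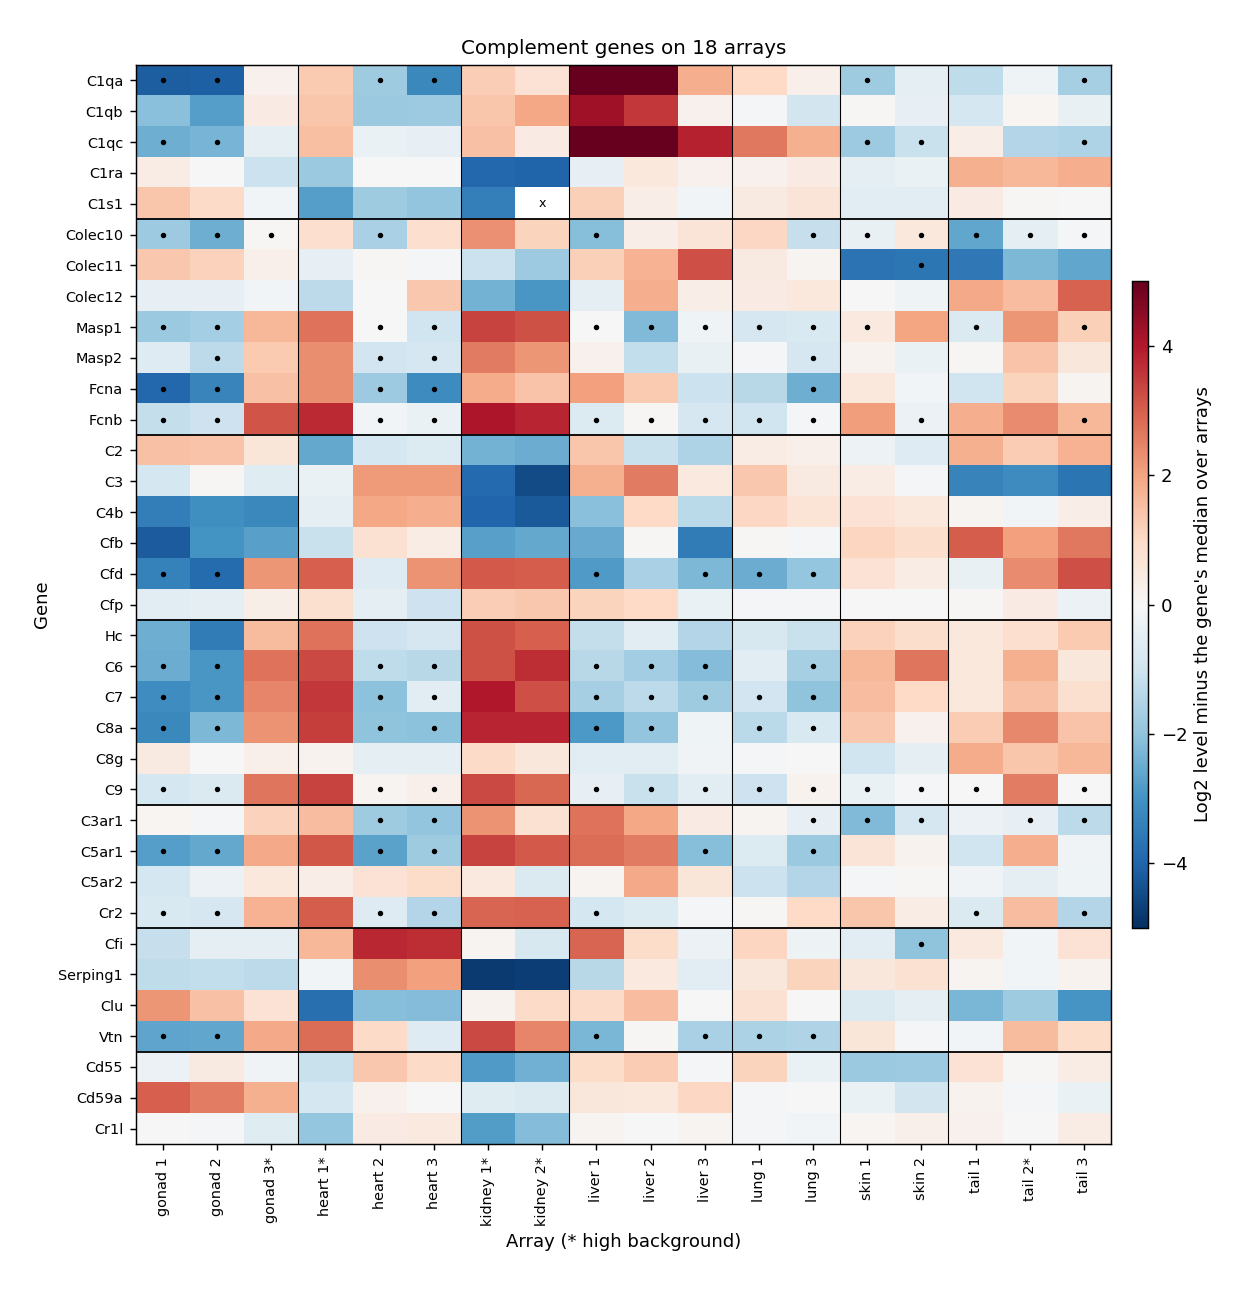
Level of each complement gene (rows, grouped by role) on each array (columns), as log2 difference from the gene's median over the arrays; colours end at 5 in either direction, dots mark spots not well above background, the cross marks the missing value of C1s1 and asterisks mark the high-background arrays. C1qa, C1qb and C1qc stand out on liver 1 and liver 2, Cd59a on the gonad arrays and Colec11 is low in skin and tail. The terminal pathway genes other than C8g are high on gonad 3, heart 1 and both kidney arrays, and C8g is highest on the tail arrays.

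Over all tested members the median difference was -0.87 in gonad, 0.011 in heart, 1.21 in kidney, 0.25 in liver, -0.23 in lung, 0.041 in skin and 0.45 in tail. Over all genes the medians were -0.059, -0.11, -0.35, 0.12, 0.083, 0.38 and 0.34 in the same order. In gonad 3 members were called higher and 3 lower, beside 2.12% and 0.811% of all genes. Heart had 4 higher and 1 lower, beside 1.37% and 2.39%. Liver had 4 higher and 0 lower, beside 1.21% and 0.608%. Skin had 0 higher and 1 lower, beside 0.73% and 0.659%. Tail had 5 higher and 3 lower, beside 4.08% and 2.19%. In lung 0 members were called by limma, beside 0.411% higher and 0.122% lower of all genes. At an unadjusted p under 0.05 lung had 4 members higher and 1 lower, beside 5.04% and 4.18% of all genes. Liver then had 9 higher and 4 lower, beside 6.87% and 15.0%, and skin 3 higher and 7 lower, beside 7.34% and 3.38%.

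The classical route opens with C1q, and its 3 chain genes were highest in liver. C1qc levels were -7.27 and -7.16 in gonad, -5.15 and -5.23 in heart, 3.05, 2.65 and -1.0 in liver, -2.19 and -3.07 in lung, -6.68 and -5.97 in skin and -4.53 and -6.37 in tail. C1qc on the high-background arrays was -5.32 on gonad 3, -3.35 on heart 1, -3.39 and -4.41 on kidney 1 and 2 and -6.29 on tail 2. All 3 liver arrays lay above the 15 others, as for 0.264% of all genes, and liver 1 and liver 2 lay well above liver 3. The liver difference of C1qc was 6.53 ± 0.75 (adjusted p = 0.000904), and 8.09, 4.17 and 7.73 within slides 1, 2 and 3. C1qc was not well above background on either skin array, so its level there is only a bound. With normexp background correction and quantile normalization the difference was 4.09, and it was called under each alternative and with each array left out.

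C1qa levels were -7.23 and -7.20 in gonad, -4.91 and -6.36 in heart, 3.08, 2.22 and -1.30 in liver, -2.13 and -2.88 in lung, -4.89 and -3.57 in skin and -4.40 and -4.80 in tail. C1qa on the high-background arrays was -2.90 on gonad 3, -1.83 on heart 1, -1.88 and -2.42 on kidney 1 and 2 and -3.34 on tail 2. Again the 3 liver arrays were above all others, and C1qa was not well above background on gonad 1, gonad 2, heart 2, heart 3, skin 1 and tail 3. Its liver difference was 5.20 ± 1.05 (adjusted p = 0.0213), with 7.41, 2.47 and 6.21 within slides 1, 2 and 3. The call was lost on leaving out a liver array: it was 4.33 (adjusted p = 0.172) without liver 1 and 4.76 (adjusted p = 0.155) without liver 2.

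C1qb was above background on all arrays and was called by neither test (F test adjusted p = 0.0646). C1qb levels were -3.68 and -4.33 in gonad, -3.45 and -3.38 in heart, 2.65, 1.98 and -1.34 in liver, -1.61 and -2.47 in lung, -1.53 and -1.99 in skin and -2.46 and -1.94 in tail. C1qb on the high-background arrays was -1.15 on gonad 3, -0.20 on heart 1, -0.19 and 0.35 on kidney 1 and 2 and -1.47 on tail 2. Liver 1 and liver 2 were the highest arrays, but liver 3 fell among those of other organs. Its liver difference of 2.94 ± 0.84 (adjusted p = 0.108) missed the threshold and was 3.78 ± 0.70 (adjusted p = 0.0155), a call, on the 13 other arrays.

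In gonad C1qc was low, with a difference of -2.98 ± 0.75 (adjusted p = 0.0494) and -3.95, -3.22 and -2.23 within slides 1, 2 and 3. Gonad 1 and gonad 2 were not well above background. The call held when gonad 3, heart 1 or liver 3 was left out and was lost when any other array was (-3.07 to -2.64, adjusted p from 0.0533 to 0.364). It was also lost in 9 of 11 alternatives, among them quantile normalization (-2.27 ± 0.61 (adjusted p = 0.0529)), normexp (-1.13 ± 0.45 (adjusted p = 0.198)) and the replicate number as a block (-2.88 ± 0.72 (adjusted p = 0.0658)).

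The promoters of C1qb and C1qc are shown because these genes rose together on the same liver arrays. Both are from RefSeq on GRCm38.p6 and run from 250 bases before the annotated start to 50 after it, C1qb at chr4:136886151-136886450, minus strand, and C1qc at chr4:136892865-136893164, minus strand, so both lie on chromosome 4. Capitals mark GAGGAA on either strand, a core of the sites of PU.1, a transcription factor of macrophages and B cells, which 28.3% of all 32851 promoters of this length hold.
C1qb: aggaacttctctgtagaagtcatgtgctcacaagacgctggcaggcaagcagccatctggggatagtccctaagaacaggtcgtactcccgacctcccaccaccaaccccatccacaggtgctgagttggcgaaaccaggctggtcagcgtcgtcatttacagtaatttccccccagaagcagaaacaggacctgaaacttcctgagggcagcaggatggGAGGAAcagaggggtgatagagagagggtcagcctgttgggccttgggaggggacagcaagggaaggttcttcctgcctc
C1qc: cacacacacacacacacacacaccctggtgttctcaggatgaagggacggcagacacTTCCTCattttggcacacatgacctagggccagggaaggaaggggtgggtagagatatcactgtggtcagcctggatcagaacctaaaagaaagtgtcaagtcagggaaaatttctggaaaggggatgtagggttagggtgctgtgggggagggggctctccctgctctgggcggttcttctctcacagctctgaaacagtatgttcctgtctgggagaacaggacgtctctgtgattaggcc
The match of C1qb runs from base -30 to -25 as the gene reads and that of C1qc from -193 to -188 on the opposite strand, counted from the start site. The ISRE, GAS (TTCNNNGAA), NF-kB, C/EBP (TTGCNNAA) and TATA box motifs were also searched on both strands and had no match in either window. A match describes the letters and is not a measured binding site.

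Some macrophage markers moved with C1q on these arrays. Of 16 listed, 11 had a probe, and in liver 9 of these were well above background on all arrays and 3 were called higher: Mrc1, Fcer1g and Lyz2. The F4/80 gene Adgre1 read 0.74, 0.37 and -3.30 on liver 1, 2 and 3. Elsewhere Adgre1 read between -7.28 and -1.97, and its highest values there came from kidney 1 and heart 1. Mrc1, the mannose receptor gene, read 0.057, 0.40 and -5.04 in liver and -7.11 to -3.42 elsewhere. Liver 1 and liver 2 were thus high for Adgre1 and Mrc1 as for C1q. On liver 3 Adgre1, Mrc1 and C1qb lay among the arrays of other organs, while C1qa and C1qc still lay above them. Other listed markers differed from this: Csf1r was called higher in skin (2.06) and not in liver, and Ptprc was called higher in kidney. Itgam read 4.66, 5.05 and 5.42 on liver 1, 2 and 3. The summed linear level of all 11 was 51.5 to 72.2 in liver, 38.9 to 70.1 in gonad, 43.9 to 46.0 in skin, 35.2 to 39.3 in lung, 10.2 to 35.3 in heart, 19.5 to 25.3 in tail and 12.3 to 13.9 in kidney, so liver and gonad overlapped. Without Itgam, whose 3 probes disagreed and which was left out after its values were seen, it was 8.63 to 46.9 in liver, 16.9 to 21.6 in skin and 4.78 to 10.6 in the other organs. The genes Csf1r, Cd14, Lyz2 and Fcer1g were above background on all 18 arrays. The part of such cells in the C1q result was not tested.

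**Figure D2:**
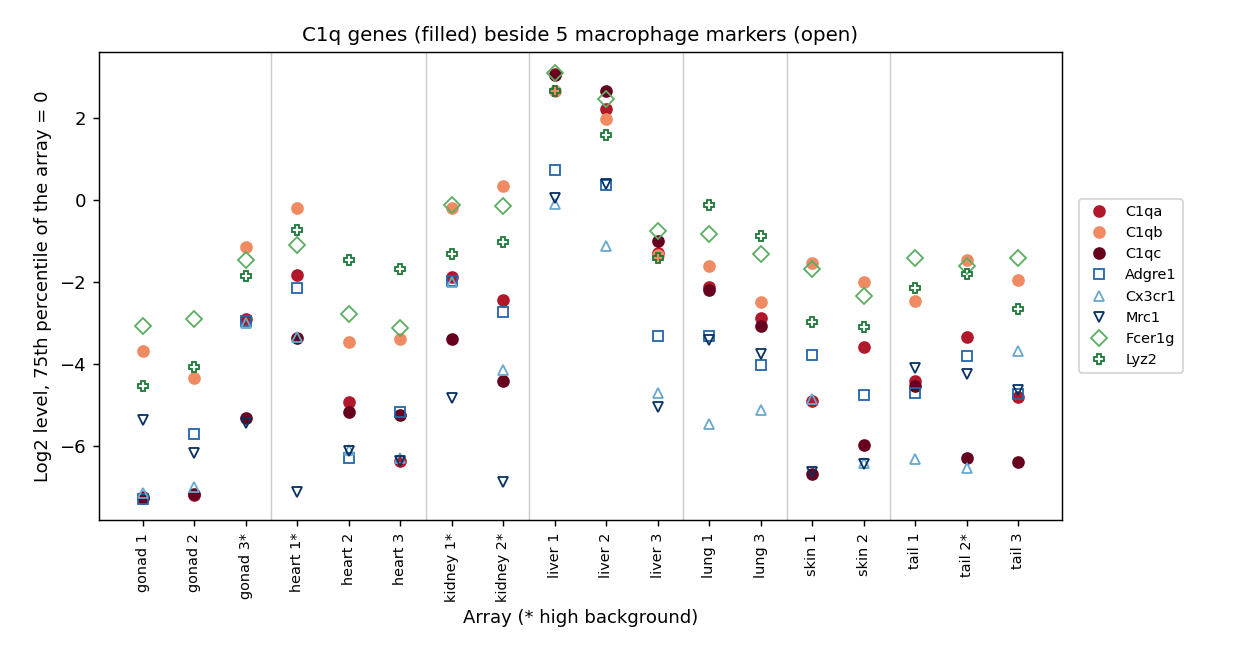
Log2 level (vertical axis, 0 is the array's 75th percentile) of the C1q chain genes (filled circles) and of 5 macrophage markers (open symbols) on each array (horizontal axis; asterisks mark high-background arrays). On liver 1 and liver 2 the C1q genes lie between 1.98 and 3.08 and on liver 3 between -1.34 and -1.0. The 5 markers drawn, picked from the 11 with a probe, are also higher on liver 1 and 2 than on liver 3. Of those not drawn, Csf1r, Ptprc, Cd14, Marco and Aif1 also were, and Itgam was not (4.66, 5.05 and 5.42 on liver 1, 2 and 3).

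The proteases of the C1 complex did not follow C1q. C1ra, which encodes C1r, was highest in tail. C1ra levels were 3.27 and 2.89 in gonad, 2.91 and 2.87 in heart, 2.48, 3.41 and 3.13 in liver, 3.13 and 3.30 in lung, 2.40 and 2.56 in skin and 4.66 and 4.72 in tail. C1ra on the high-background arrays was 1.82 on gonad 3, 1.06 on heart 1, -1.02 and -1.11 on kidney 1 and 2 and 4.56 on tail 2. The 3 tail arrays lay above all others, as for 4.32% of all genes, within 0.16 of each other, and the kidney arrays lay below all, as for 16.1% of all genes. The tail difference was 2.55 ± 0.39 (adjusted p = 0.000954), with 2.48, 1.97 and 2.95 within slides 1, 2 and 3, and it was called under each alternative and with each array left out. Both C1ra probes had their highest organ mean in tail (4.65 and 4.21). C1rb, a near-identical copy, was also called higher in tail, and reads of the pair could be shared between their probes.

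C1s1 encodes C1s and was missing on kidney 2, so it was fitted with 17 arrays, a choice made after the values were seen. C1s1 levels were 4.99 and 4.56 in gonad, 1.80 and 1.61 in heart, 4.78, 3.91 and 3.47 in liver, 4.06 and 4.25 in lung, 3.05 and 3.02 in skin and 4.01 and 3.59 in tail. C1s1 on the high-background arrays was 3.45 on gonad 3, 0.85 on heart 1, 0.18 on kidney 1 and 3.67 on tail 2. The heart arrays lay below all others but kidney 1, and gonad 1 was the highest array. By this fit the difference was 1.57 ± 0.36 (adjusted p = 0.0358) in gonad, -1.83 ± 0.36 (adjusted p = 0.011) in heart and -3.28 ± 0.58 (adjusted p = 0.00165) in kidney. Its copy C1s2 moved likewise in gonad and heart by its brighter probe, as given among the other pathway genes.

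The C1ra promoter is shown because it held matches of 3 of the motifs searched. It lies at chr6:124512371-124512670, plus strand, on GRCm38.p6.
C1ra: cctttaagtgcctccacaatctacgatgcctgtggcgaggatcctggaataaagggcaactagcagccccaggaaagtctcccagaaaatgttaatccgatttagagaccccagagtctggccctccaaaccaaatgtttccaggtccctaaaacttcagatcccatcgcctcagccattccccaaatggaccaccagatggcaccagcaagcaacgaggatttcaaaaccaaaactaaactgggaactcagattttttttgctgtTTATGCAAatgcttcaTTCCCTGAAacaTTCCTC
Capitals mark a C/EBP match at bases 16 to 23 on the opposite strand, a GAS match (the letters bound by STAT factors) at 32 to 40 and a PU.1 match at 44 to 49 on the opposite strand. Of all promoters 10.8% hold the C/EBP letters, 8.3% the GAS letters and 28.3% the PU.1 letters. All 3 matches lie after the annotated start.

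C3, the protein on which all routes converge, was high in heart and liver and low in tail. C3 levels were 3.24 and 4.17 in gonad, 6.25 and 6.25 in heart, 5.87, 6.73 and 4.59 in liver, 5.47 and 4.58 in lung, 4.48 and 4.05 in skin and 0.75 and 0.48 in tail. C3 on the high-background arrays was 3.52 on gonad 3, 3.78 on heart 1, 0.23 and -0.37 on kidney 1 and 2 and 0.95 on tail 2. Tail read between 0.48 and 0.95 and was below all arrays but those of kidney. Heart 2, heart 3 and liver 2 were the highest, and heart 1 lay below them. The tail difference was -3.28 ± 0.51 (adjusted p = 0.00114), with -3.40, -3.28 and -3.71 within slides 1, 2 and 3, and it was called under each alternative and with each array left out.

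C3 in heart differed by 2.21 ± 0.51 (adjusted p = 0.0243), with 3.01, 0.11 and 3.52 within slides 1, 2 and 3. Slide 2 holds heart 1. This call was lost without a heart array, at 1.80 (adjusted p = 0.198) without heart 2 and 1.79 (adjusted p = 0.198) without heart 3. In liver C3 differed by 2.56 ± 0.51 (adjusted p = 0.0201), with 2.57, 1.09 and 4.11 within slides 1, 2 and 3, and lost the call at 2.49 (adjusted p = 0.119) without liver 1 and 2.06 (adjusted p = 0.177) without liver 2. The second C3 probe gave its highest organ means in the same organs, 4.98 in liver and 4.69 in heart, and 0.38 in tail.

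The C3 promoter lies at chr17:57228087-57228386, minus strand, on GRCm38.p6, and is shown for its C/EBP match, since C/EBP factors are known regulators of this gene in inflammation.
C3: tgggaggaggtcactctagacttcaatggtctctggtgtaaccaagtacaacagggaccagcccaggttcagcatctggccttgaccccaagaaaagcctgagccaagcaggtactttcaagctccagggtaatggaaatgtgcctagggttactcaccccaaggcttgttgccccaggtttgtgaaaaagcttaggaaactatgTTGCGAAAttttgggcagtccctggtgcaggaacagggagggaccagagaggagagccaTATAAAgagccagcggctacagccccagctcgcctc
Capitals mark TTGCNNAA at bases -45 to -38, which 10.8% of all promoters hold, and TATAAA at bases 14 to 19, which 13.6% hold. The TATAAA letters lie after the annotated start here.

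C4b encodes C4, whose fragment joins C2 in the classical and lectin convertase. C4b levels were -1.43 and -1.04 in gonad, 3.94 and 3.83 in heart, -0.088, 2.99 and 0.66 in liver, 3.04 and 2.69 in lung, 2.74 and 2.55 in skin and 2.16 and 2.35 in tail. C4b on the high-background arrays was -1.21 on gonad 3, 1.58 on heart 1, -1.95 and -2.19 on kidney 1 and 2 and 1.87 on tail 2. The gonad arrays were below all others but those of kidney, and heart 2 and heart 3 were the highest. The liver arrays spread over 3.08 log2 units, more than the gonad or the heart difference. In gonad the difference was -2.87 ± 0.55 (adjusted p = 0.0097), with -3.03, -2.91 and -3.01 within slides 1, 2 and 3, and the call was lost at -2.77 (adjusted p = 0.0885) without gonad 1 and -2.96 (adjusted p = 0.0608) without gonad 2.

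In heart C4b differed by 2.20 ± 0.55 (adjusted p = 0.0385), with 3.23, 0.24 and 3.29 within slides 1, 2 and 3. The call held without gonad 3, heart 1, liver 1 or liver 2 and was lost when any other array was left out (1.79 to 2.23, adjusted p from 0.0567 to 0.255). It was also lost with the replicate number as a block (2.16 ± 0.54 (adjusted p = 0.0544)). The near-identical C4a had no probe here, so what the C4b probe reads may hold both.

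C2, the protease of that convertase, was high in tail and gonad. C2 levels were 2.97 and 2.94 in gonad, 0.64 and 0.84 in heart, 2.89, 0.39 and -0.023 in liver, 1.89 and 1.78 in lung, 1.24 and 0.88 in skin and 3.30 and 3.27 in tail. C2 on the high-background arrays was 2.12 on gonad 3, -1.05 on heart 1, -0.84 and -0.98 on kidney 1 and 2 and 2.77 on tail 2. Tail 1 and tail 3 were the highest arrays, gonad 1, gonad 2 and liver 1 came next, and tail 2 lay below these. Liver spread from -0.023 to 2.89. The tail difference was 2.13 ± 0.52 (adjusted p = 0.0226), with 1.86, 1.86 and 2.64 within slides 1, 2 and 3. It missed the threshold at 2.04 (adjusted p = 0.144) without tail 1, 2.30 (adjusted p = 0.0699) without tail 2 and 2.05 (adjusted p = 0.137) without tail 3. In gonad the difference of 1.62 ± 0.52 (adjusted p = 0.149) was not called.

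Cfb encodes factor B, the protease of the alternative convertase and the counterpart of C2. Cfb levels were -4.28 and -3.07 in gonad, 0.66 and 0.29 in heart, -2.60, -0.047 and -3.59 in liver, -0.034 and -0.15 in lung, 0.98 and 0.79 in skin and 2.93 and 2.55 in tail. Cfb on the high-background arrays was -2.81 on gonad 3, -1.20 on heart 1, -2.80 and -2.68 on kidney 1 and 2 and 1.96 on tail 2. The tail arrays were above all 15 others, and the gonad arrays were among the lowest, beside those of kidney, liver 1 and liver 3. The tail difference was 3.73 ± 0.58 (adjusted p = 0.00119), with 4.25, 3.41 and 3.89 within slides 1, 2 and 3, called under each alternative and with each array left out. In gonad it was -3.11 ± 0.58 (adjusted p = 0.00851), with -4.15, -2.63 and -2.80 within slides 1, 2 and 3, and it was lost at -2.67 (adjusted p = 0.113) without gonad 1 and under quantile normalization, at -2.53 ± 0.71 (adjusted p = 0.0643). With normexp the gonad value was -1.81, a call.

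Cfd, factor D, is the protease that cleaves factor B and is a product of fat cells. Cfd levels were -6.66 and -7.11 in gonad, -3.91 and -1.01 in heart, -6.08, -4.89 and -5.52 in liver, -5.73 and -5.18 in lung, -2.53 and -2.91 in skin and -3.61 and -0.042 in tail. Cfd on the high-background arrays was -1.06 on gonad 3, -0.29 on heart 1, -0.18 and -0.23 on kidney 1 and 2 and -0.91 on tail 2. It was not well above background on gonad 1 and 2, liver 1 and 3, and lung 1 and 3. Tail 3 read above tail 1 and heart 3 above heart 2, and the organs overlapped. Cfd passed the F test (adjusted p = 0.0487) but no contrast outside kidney.

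Cfp encodes properdin, which stabilises the alternative convertase. Cfp levels were 0.83 and 0.93 in gonad, 0.89 and 0.34 in heart, 2.50, 2.39 and 1.06 in liver, 1.33 and 1.31 in lung, 1.38 and 1.41 in skin and 1.44 and 1.09 in tail. Cfp on the high-background arrays was 1.69 on gonad 3, 2.21 on heart 1, 2.61 and 2.75 on kidney 1 and 2 and 1.79 on tail 2. Liver 1 and liver 2 read 2.50 and 2.39, the highest of the 13 other arrays, and kidney was above all, as for 10.1% of all genes. Its F test adjusted p was 0.175, and its liver difference was 0.46 ± 0.38 (adjusted p = 0.365).

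**Figure D3:**
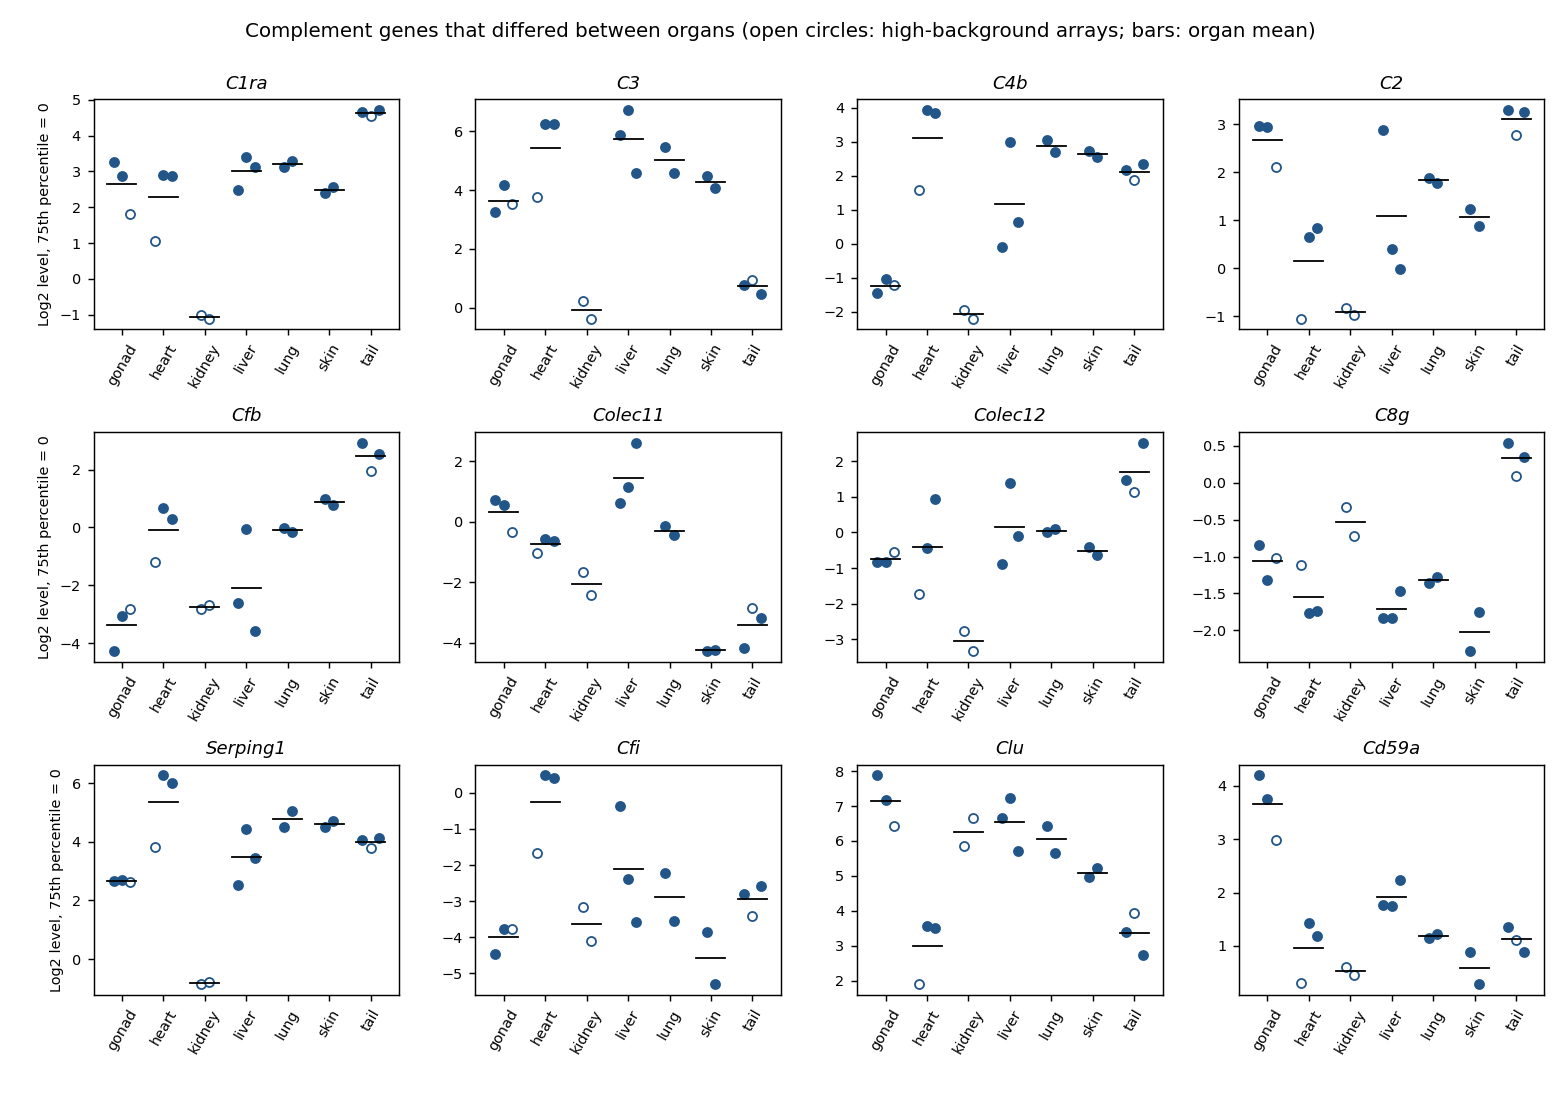
Level of 12 complement genes by organ (log2, 0 is the array's 75th percentile); each circle is an array, open circles are high-background arrays and bars are organ means. Tail lies above the other organs for C1ra, Cfb and C8g, gonad for Cd59a, and skin is the lowest organ for Colec11.

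Among lectin pathway genes Colec11, a secreted collectin that binds sugars, was called in 4 organs. Colec11 levels were 0.73 and 0.55 in gonad, -0.56 and -0.65 in heart, 0.61, 1.14 and 2.61 in liver, -0.16 and -0.45 in lung, -4.29 and -4.23 in skin and -4.17 and -3.18 in tail. Colec11 on the high-background arrays was -0.34 on gonad 3, -1.03 on heart 1, -1.67 and -2.43 on kidney 1 and 2 and -2.85 on tail 2. Both skin arrays lay below all others, as for 0.639% of all genes, and the tail arrays were next lowest. Skin 2 was not well above background for Colec11, so 1 of the 2 skin arrays measured it. Liver 3 was the highest array. Skin differed by -3.47 ± 0.47 (adjusted p = 0.00267), with -3.29 and -4.00 within slides 1 and 2, and was lost with 1 skin array, at -3.44 (adjusted p = 0.0935) without skin 1 and -3.50 (adjusted p = 0.123) without skin 2. With normexp the skin value was -1.81 and on the deposited value table -2.23, both called.

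Tail differed by -2.47 ± 0.40 (adjusted p = 0.00152), with -3.16, -2.34 and -2.80 within slides 1, 2 and 3. Liver differed by 3.20 ± 0.40 (adjusted p = 0.00115), with 2.42, 4.22 and 2.60 within slides 1, 2 and 3. Both were called under each alternative and with each array left out, and with normexp the tail value was -1.56. Gonad was higher by 1.86 ± 0.40 (adjusted p = 0.0202), with 2.57, 1.74 and 0.75 within slides 1, 2 and 3, and was lost at 1.65 (adjusted p = 0.204) without gonad 1 and 1.75 (adjusted p = 0.166) without gonad 2. Skin and tail thus lay low and liver and gonad high, with heart and lung between them.

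The Colec11 promoter is shown for the variation of the gene, at chr12:28623281-28623580, minus strand, on GRCm38.p6.
Colec11: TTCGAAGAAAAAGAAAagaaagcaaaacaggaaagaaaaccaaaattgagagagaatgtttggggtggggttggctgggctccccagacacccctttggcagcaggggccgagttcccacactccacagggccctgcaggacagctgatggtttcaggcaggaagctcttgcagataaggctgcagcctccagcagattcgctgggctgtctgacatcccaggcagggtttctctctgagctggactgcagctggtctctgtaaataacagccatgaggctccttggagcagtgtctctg
Capitals mark a GAS match at bases -250 to -242, which 8.3% of all promoters hold, and an ISRE match (the letters bound by interferon-activated factors) at -244 to -235, which 3.44% hold. The matches overlap by 3 bases.

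Colec12 encodes a membrane collectin of the scavenger receptor kind. Colec12 levels were -0.82 and -0.84 in gonad, -0.42 and 0.94 in heart, -0.87, 1.40 and -0.11 in liver, 0.0015 and 0.10 in lung, -0.42 and -0.64 in skin and 1.48 and 2.52 in tail. Colec12 on the high-background arrays was -0.54 on gonad 3, -1.73 on heart 1, -2.77 and -3.34 on kidney 1 and 2 and 1.13 on tail 2. Tail 3, tail 1 and liver 2 were the highest arrays, and liver 2 and heart 3 stood above the other arrays of their organ. The tail difference was 2.46 ± 0.51 (adjusted p = 0.00844), with 2.46, 1.77 and 2.76 within slides 1, 2 and 3, and was lost at 2.06 (adjusted p = 0.0999) without tail 3.

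Of the lectin proteases and ficolins, Masp1 and Fcnb were above background on 1 and 2 of the 13 other arrays, and Masp2 and Fcna on 9 and 8. Masp1 levels were -7.19 and -7.06 in gonad, -5.31 and -6.36 in heart, -5.38, -7.56 and -5.55 in liver, -6.20 and -6.09 in lung, -4.85 and -3.38 in skin and -6.05 and -4.16 in tail. Masp1 on the high-background arrays was -3.69 on gonad 3, -2.62 on heart 1, -1.95 and -2.17 on kidney 1 and 2 and -3.14 on tail 2. Masp1, a protease of the lectin route, was above background on skin 2 alone among the 13 other arrays. Masp2 levels were -4.37 and -5.05 in gonad, -4.69 and -4.57 in heart, -3.51, -4.96 and -4.08 in liver, -3.80 and -4.58 in lung, -3.55 and -4.04 in skin and -3.66 and -3.17 in tail. Masp2 on the high-background arrays was -2.43 on gonad 3, -1.42 on heart 1, -1.14 and -1.53 on kidney 1 and 2 and -2.28 on tail 2. Masp2, which cleaves C4 and C2, was above background on all but gonad 2, heart 2, heart 3 and lung 3, and its organs overlapped. Colec10 levels were -6.56 and -7.18 in gonad, -6.36 and -3.89 in heart, -6.89, -4.43 and -4.08 in liver, -3.69 and -5.91 in lung, -5.13 and -4.21 in skin and -7.35 and -4.82 in tail. Colec10 on the high-background arrays was -4.67 on gonad 3, -3.91 on heart 1, -2.44 and -3.63 on kidney 1 and 2 and -5.25 on tail 2. Colec10, a liver collectin, was above background on heart 3, liver 2, liver 3 and lung 1 among the 13 other arrays, and was not on gonad 3 or tail 2.

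The ficolin genes differed from each other on the liver arrays. Fcna levels were -7.17 and -6.53 in gonad, -5.06 and -6.38 in heart, -1.20, -1.93 and -4.32 in liver, -4.61 and -5.68 in lung, -2.73 and -3.37 in skin and -4.23 and -3.10 in tail. Fcna on the high-background arrays was -1.76 on gonad 3, -0.92 on heart 1, -1.36 and -1.80 on kidney 1 and 2 and -2.12 on tail 2. Fcna, a ficolin of liver and spleen macrophages, was higher on liver 1 and 2 than on the 11 others of the 13, and liver 3 was not. On these 13 arrays its liver difference was 2.40 ± 0.62 (adjusted p = 0.0499), but over all 18 it was 1.22 ± 1.13 (adjusted p = 0.403). Fcnb levels were -7.20 and -7.02 in gonad, -6.15 and -6.35 in heart, -6.68, -5.93 and -6.83 in liver, -7.00 and -6.07 in lung, -3.93 and -6.31 in skin and -4.18 and -4.35 in tail. Fcnb on the high-background arrays was -2.87 on gonad 3, -2.29 on heart 1, -1.95 and -2.18 on kidney 1 and 2 and -3.63 on tail 2. Fcnb, a ficolin of neutrophils and monocytes, was above background on skin 1 and tail 1 among the 13 other arrays.

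In the terminal pathway C8g, the gamma chain of C8, was the one member called outside kidney. C8g levels were -0.84 and -1.31 in gonad, -1.77 and -1.74 in heart, -1.83, -1.83 and -1.46 in liver, -1.35 and -1.27 in lung, -2.28 and -1.75 in skin and 0.54 and 0.35 in tail. C8g on the high-background arrays was -1.02 on gonad 3, -1.12 on heart 1, -0.33 and -0.72 on kidney 1 and 2 and 0.096 on tail 2. The tail arrays lay above all 15 others, and the kidney arrays came next. The tail difference was 1.69 ± 0.24 (adjusted p = 0.000673), with 2.01, 1.48 and 1.59 within slides 1, 2 and 3, called under each alternative and with each array left out. A second, dimmer probe had its highest organ means in kidney (-1.48) and tail (-1.92).

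Hc encodes C5 and was above background on all arrays. Hc levels were -3.52 and -4.58 in gonad, -2.09 and -1.92 in heart, -2.25, -1.61 and -2.51 in liver, -1.86 and -2.19 in lung, 0.099 and -0.18 in skin and -0.52 and 0.23 in tail. Hc on the high-background arrays was 0.53 on gonad 3, 1.64 on heart 1, 2.10 and 1.93 on kidney 1 and 2 and -0.24 on tail 2. Gonad 1 and gonad 2 were the lowest arrays, skin and tail were the highest of the 13 others, and gonad 3, heart 1 and kidney were above those. With gonad 3 among them the gonad arrays had an SD of 2.69, and the gonad difference was -2.00 ± 0.86 (adjusted p = 0.399). On the 13 other arrays Hc differed by -2.78 ± 0.32 (adjusted p = 0.000721) in gonad, 2.03 ± 0.32 (adjusted p = 0.00249) in skin and 1.90 ± 0.32 (adjusted p = 0.00306) in tail. Of all genes 16.5% were called lower in gonad, 19.6% higher in skin and 15.8% higher in tail there. With normexp as well, an alternative added after the data were seen, the Hc differences were -1.35 ± 0.16 (adjusted p = 0.000295), 1.37 ± 0.16 (adjusted p = 0.000232) and 1.25 ± 0.16 (adjusted p = 0.00025). The shares of all genes were then 2.11%, 3.16% and 3.77%. Median probe signal was 86.1 and 54.8 on skin 1 and 2 and 60.8 and 74.2 on tail 1 and 3. It was 21.2 and 19.9 on gonad 1 and 2, and its part in these differences was not tested.

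C6, C7 and C8a, which build the pore with C5 and C9, shared a pattern near background. C6 levels were -6.83 and -7.25 in gonad, -5.62 and -5.74 in heart, -5.76, -6.07 and -6.54 in liver, -4.88 and -6.01 in lung, -2.68 and -1.69 in skin and -3.83 and -3.81 in tail. C6 on the high-background arrays was -1.63 on gonad 3, -1.06 on heart 1, -1.17 and -0.65 on kidney 1 and 2 and -2.57 on tail 2. Among the 13 other arrays C6 was above background on lung 1, skin 1, skin 2, tail 1 and tail 3. C7 levels were -7.21 and -7.05 in gonad, -6.19 and -4.64 in heart, -5.79, -5.43 and -5.92 in liver, -5.07 and -6.14 in lung, -2.58 and -3.12 in skin and -3.62 and -3.33 in tail. C7 on the high-background arrays was -1.69 on gonad 3, -0.58 on heart 1, -0.13 and -0.92 on kidney 1 and 2 and -2.68 on tail 2. C7 was above background there on both skin arrays, tail 1 and tail 3. C8a levels were -7.24 and -6.29 in gonad, -6.05 and -6.07 in heart, -6.92, -6.02 and -4.25 in liver, -5.37 and -4.78 in lung, -2.68 and -3.82 in skin and -2.77 and -2.62 in tail. C8a on the high-background arrays was -1.78 on gonad 3, -0.59 on heart 1, -0.22 and -0.23 on kidney 1 and 2 and -1.62 on tail 2. C8a was above background on the same skin and tail arrays and on liver 3. On the 13 other arrays skin differed by 3.44 ± 0.33 (adjusted p = 0.000455) for C6, 2.62 ± 0.39 (adjusted p = 0.002) for C7 and 2.01 ± 0.58 (adjusted p = 0.0268) for C8a. On those arrays 19.6% of all genes were called higher in skin. With normexp as well no skin, tail or gonad difference of these 3 genes was called.

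C9, the chain that polymerises into the pore, was above background on the 5 high-background arrays alone. C9 levels were -7.25 and -7.10 in gonad, -6.23 and -6.11 in heart, -6.76, -7.46 and -6.91 in liver, -7.41 and -6.18 in lung, -6.69 and -6.45 in skin and -6.36 and -6.37 in tail. C9 on the high-background arrays was -3.69 on gonad 3, -2.97 on heart 1, -3.08 and -3.50 on kidney 1 and 2 and -3.79 on tail 2. Its level on the 13 others lay between -7.46 and -6.11, and these values have no order, since none is above background.

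The receptors had no call outside kidney. C3ar1 levels were -4.39 and -4.61 in gonad, -6.27 and -6.49 in heart, -1.77, -2.56 and -4.09 in liver, -4.37 and -4.89 in lung, -6.72 and -5.33 in skin and -4.80 and -5.81 in tail. C3ar1 on the high-background arrays was -3.34 on gonad 3, -2.94 on heart 1, -2.26 and -3.75 on kidney 1 and 2 and -4.91 on tail 2. C3ar1, the receptor for the C3 fragment that draws in leukocytes, was highest on liver 1 and liver 2 among the 13 other arrays. Its liver difference was 1.89 ± 0.68 (adjusted p = 0.198), and it was 2.56 ± 0.47 (adjusted p = 0.0152) on those 13 arrays, 2.79 ± 0.48 (adjusted p = 0.00794) with quantile normalization and 1.1 ± 0.21 (adjusted p = 0.00888) with normexp. C5ar1 levels were -6.53 and -6.33 in gonad, -6.47 and -5.56 in heart, -0.97, -1.16 and -5.91 in liver, -4.45 and -5.61 in lung, -3.14 and -3.59 in skin and -4.77 and -3.96 in tail. C5ar1 on the high-background arrays was -1.88 on gonad 3, -0.69 on heart 1, -0.41 and -0.70 on kidney 1 and 2 and -1.95 on tail 2. C5ar1, the main receptor for the C5 fragment, also read highest on liver 1 and liver 2 of the 13, at -0.97 and -1.16, and was not above background on liver 3. Its liver difference was 0.93 ± 1.27 (adjusted p = 0.552), and the F test gave an adjusted p of 0.338.

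C5ar2, the other receptor for that fragment, was above background on all arrays, with levels from -3.39 to -0.044. Lung was lowest and liver 2 highest, and neither test called it (F test adjusted p = 0.0674). Its 2 probes differed: the dimmer one had an organ mean of -1.98 in liver and of -5.91 to -3.47 elsewhere. Cr2 levels were -5.18 and -5.26 in gonad, -5.04 and -5.89 in heart, -5.28, -5.07 and -4.47 in liver, -4.33 and -3.41 in lung, -3.03 and -4.02 in skin and -5.13 and -5.87 in tail. Cr2 on the high-background arrays was -2.66 on gonad 3, -1.39 on heart 1, -1.51 and -1.45 on kidney 1 and 2 and -2.88 on tail 2. Cr2, a receptor of B cells and follicular dendritic cells, was above background on liver 2 and 3, lung 1 and 3 and skin 1 and 2 of the 13 other arrays.

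Among fluid-phase regulators, Serping1 encodes the C1 inhibitor, which blocks C1r, C1s and the Masp proteases. Serping1 levels were 2.67 and 2.70 in gonad, 6.26 and 6.0 in heart, 2.54, 4.43 and 3.43 in liver, 4.50 and 5.06 in lung, 4.50 and 4.72 in skin and 4.07 and 4.12 in tail. Serping1 on the high-background arrays was 2.64 on gonad 3, 3.82 on heart 1, -0.85 and -0.77 on kidney 1 and 2 and 3.79 on tail 2. Heart 2 and heart 3 were the highest arrays, while heart 1 fell below liver 2, tail 1, tail 3 and the lung and skin arrays. The gonad arrays stayed within 0.054 of each other. Heart differed by 2.24 ± 0.45 (adjusted p = 0.00974), with 3.34, -0.12 and 3.41 within slides 1, 2 and 3. On slide 2, which holds heart 1, the direction was thus turned, and the call was lost at 1.79 (adjusted p = 0.101) without heart 2 and 1.92 (adjusted p = 0.0956) without heart 3. Both Serping1 probes had their highest organ mean in heart (5.36 and 4.66). On the 13 other arrays Serping1 was also called lower in gonad, at -1.93 ± 0.38 (adjusted p = 0.00657), and with normexp as well at -1.98 ± 0.37 (adjusted p = 0.00497).

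Cfi encodes factor I, the protease that inactivates the bound fragments of C3 and C4 with the help of cofactors. Cfi levels were -4.45 and -3.78 in gonad, 0.48 and 0.40 in heart, -0.38, -2.38 and -3.59 in liver, -2.23 and -3.54 in lung, -3.85 and -5.30 in skin and -2.81 and -2.57 in tail. Cfi on the high-background arrays was -3.76 on gonad 3, -1.66 on heart 1, -3.17 and -4.11 on kidney 1 and 2 and -3.42 on tail 2. Heart 2 and heart 3 were highest, heart 1 lay below liver 1, and the liver arrays spread over 3.21 units. Heart differed by 3.10 ± 0.61 (adjusted p = 0.00827), with 3.45, 2.27 and 3.37 within slides 1, 2 and 3. The call was lost at 2.73 (adjusted p = 0.0803) without heart 2 and 2.77 (adjusted p = 0.0778) without heart 3, with quantile normalization (2.67 ± 0.87 (adjusted p = 0.108)) and with normexp (1.49 ± 0.46 (adjusted p = 0.0752)). It was 1.98 on the deposited value table and 2.34 ± 0.36 (adjusted p = 0.0015) on the 13 other arrays with normexp, both called.

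Clu encodes clusterin, a chaperone that also binds the terminal complex, and was high in gonad and low in heart and tail. Clu levels were 7.88 and 7.16 in gonad, 3.56 and 3.51 in heart, 6.65, 7.23 and 5.70 in liver, 6.43 and 5.67 in lung, 4.96 and 5.22 in skin and 3.40 and 2.74 in tail. Clu on the high-background arrays was 6.42 on gonad 3, 1.90 on heart 1, 5.85 and 6.66 on kidney 1 and 2 and 3.93 on tail 2. Heart and tail arrays lay below all others. Gonad 1 was the highest array, and gonad overlapped with liver, lung and kidney. Heart differed by -2.75 ± 0.44 (adjusted p = 0.00217), with -2.44, -3.63 and -2.04 within slides 1, 2 and 3, called under each alternative and with each array left out. Tail differed by -2.32 ± 0.44 (adjusted p = 0.00485), with -2.62, -1.20 and -3.02 within slides 1, 2 and 3, and was lost at -2.01 (adjusted p = 0.0624) without tail 3. Gonad differed by 2.11 ± 0.44 (adjusted p = 0.0176), with 2.60, 2.68 and 1.58 within slides 1, 2 and 3, and was lost at 1.74 (adjusted p = 0.209) without gonad 1 and 2.10 (adjusted p = 0.12) without gonad 2.

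Vtn encodes vitronectin, which keeps the terminal complex from membranes. Vtn levels were -7.16 and -7.10 in gonad, -3.56 and -5.15 in heart, -6.80, -4.45 and -6.11 in liver, -6.09 and -6.02 in lung, -3.88 and -4.56 in skin and -4.66 and -3.57 in tail. Vtn on the high-background arrays was -2.63 on gonad 3, -1.70 on heart 1, -1.21 and -2.05 on kidney 1 and 2 and -2.93 on tail 2. It was not above background on gonad 1 and 2, liver 1 and 3, or lung 1 and 3, and the organs overlapped.

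Of the membrane regulators, Cd59a, which stops C9 from polymerising on the cell's own membrane, was highest in gonad. Cd59a levels were 4.19 and 3.76 in gonad, 1.42 and 1.18 in heart, 1.77, 1.74 and 2.23 in liver, 1.15 and 1.23 in lung, 0.89 and 0.28 in skin and 1.36 and 0.89 in tail. Cd59a on the high-background arrays was 2.99 on gonad 3, 0.31 on heart 1, 0.59 and 0.46 on kidney 1 and 2 and 1.11 on tail 2. All 3 gonad arrays lay above the 15 others, as for 0.811% of all genes, whose highest was liver 3. Gonad differed by 2.60 ± 0.30 (adjusted p = 0.000271), with 3.02, 2.73 and 1.89 within slides 1, 2 and 3. This was called under each alternative and with each array left out. The related gene Cd59b was not called in gonad (0.51 ± 0.57 (adjusted p = 0.735)).

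The Cd59a promoter is shown as that of the clearest gonad member, at chr2:104095551-104095850, plus strand, on GRCm38.p6.
Cd59a: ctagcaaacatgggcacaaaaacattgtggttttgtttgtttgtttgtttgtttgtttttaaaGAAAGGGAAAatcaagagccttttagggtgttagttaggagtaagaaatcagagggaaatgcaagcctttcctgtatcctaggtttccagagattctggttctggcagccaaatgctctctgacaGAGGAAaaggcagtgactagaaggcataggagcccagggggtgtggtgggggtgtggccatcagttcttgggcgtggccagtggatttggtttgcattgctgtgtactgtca
Capitals mark an ISRE match at bases -187 to -178, which 3.44% of all promoters hold, and a PU.1 match at -62 to -57, which 28.3% hold. The other 4 motifs had no match in this window.

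Cd55 encodes decay-accelerating factor, which takes convertases apart. Cd55 levels were 0.71 and 1.41 in gonad, 2.32 and 1.92 in heart, 1.91, 2.25 and 0.91 in liver, 2.08 and 0.67 in lung, -0.87 and -0.83 in skin and 1.72 and 1.35 in tail. Cd55 on the high-background arrays was 0.80 on gonad 3, -0.13 on heart 1, -1.84 and -1.44 on kidney 1 and 2 and 1.05 on tail 2. The skin arrays were the lowest of the 13 others, and heart 2 and liver 2 the highest. Over 18 arrays the skin difference was -1.71 ± 0.55 (adjusted p = 0.202), not a call, and on the 13 others it was -2.41 ± 0.41 (adjusted p = 0.00324). With normexp as well it was -2.23 ± 0.37 (adjusted p = 0.00168). The related gene Cd55b was not called by either test (skin -0.97 ± 0.39 (adjusted p = 0.363)).

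Cr1l encodes Crry, a mouse regulator that does the work of both DAF and membrane cofactor protein. Cr1l levels were 3.80 and 3.69 in gonad, 4.19 and 4.28 in heart, 3.95, 3.78 and 3.92 in liver, 3.68 and 3.65 in lung, 3.87 and 4.06 in skin and 4.02 and 4.18 in tail. Cr1l on the high-background arrays was 3.17 on gonad 3, 1.87 on heart 1, 0.99 and 1.62 on kidney 1 and 2 and 3.79 on tail 2. The 13 other arrays lay within 0.63 of each other, the narrowest range among members above background on all arrays. Gonad 3, heart 1 and both kidney arrays held the lowest values, and outside kidney no difference was called.

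In kidney 13 members were called higher and 10 lower, beside 35.4% and 42.3% of all genes. The higher ones were Colec10, Masp1, Masp2, Fcnb, Cfd, Cfp, Hc, C6, C7, C8a, C9, Cr2 and Vtn, with differences from 1.28 ± 0.46 for Cfp to 4.07 ± 1.34 for C8a. Most of these are dim genes that also read high on heart 1 and gonad 3. The lower ones were C1ra, Colec12, C2, C3, C4b, Cfb, Serping1, Cd55, Cd59a and Cr1l, from -1.04 ± 0.36 for Cd59a to -4.96 ± 0.53 for Serping1. Cd59a at -1.04 lay just past the limit of 1, and leaving out gonad 1 or skin 1 put it just short, at -0.997 and -0.993.

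Of these 23 calls, C1ra, C3, C4b and Serping1 were called with each array left out, and the 19 others were lost without kidney 1, and all of these but C2, Cd55, Colec12 and Cr1l also without kidney 2. Each call had the same direction on slides 1 and 3, which hold a kidney array each. With quantile normalization 6 members were called higher and 12 lower, beside 17.6% and 31.2% of all genes. With normexp 6 were higher and 10 lower, beside 11.9% and 27.9%. Serping1 was then -5.98 ± 0.35 (adjusted p = 2.21e-07) and -5.26 ± 0.33 (adjusted p = 1.53e-07), C1ra -5.44 ± 0.23 (adjusted p = 1.46e-08) and -4.54 ± 0.20 (adjusted p = 9.14e-09), and C3, C4b, C2, Cfb, Colec12 and Cd55 were lower in both. Clu, not called under the scaling used here (1.06 ± 0.52 (adjusted p = 0.0742)), was higher in kidney by 3.48 ± 0.39 (adjusted p = 3.31e-05) and 3.49 ± 0.37 (adjusted p = 1.1e-05). With the array floor as a covariate 0 members were called in kidney by limma, where 0.112% and 0.0862% of all genes were called higher and lower. At an unadjusted p under 0.05 that fit had 1 member higher and 3 lower, beside 3.16% and 5.45% of all genes. Of 9 kidney tubule markers 6 were called higher in kidney, as were 10 of 12 hepatocyte markers, and the part of such cells in these values was not tested.

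Heart and tail calls stood beside an interferon response. Of 17 listed interferon-response genes 15 had a probe, 14 were called higher in heart and 8 in tail. Their summed linear level was 126 to 665 in heart, 56.2 to 148 in tail and 9.77 to 25.8 in the other organs. C3, C4b, Serping1 and Cfi were called higher in heart, and C1ra, C2, Cfb, Colec12 and C8g in tail, where C3 was lower; each of these organs is among the 6 that the other was set against. In heart C1ra differed by -0.21 ± 0.39 (adjusted p = 1) and Cfb by 0.74 ± 0.58 (adjusted p = 1). In tail Serping1 differed by 0.65 ± 0.45 (adjusted p = 0.585) and C4b by 1.04 ± 0.55 (adjusted p = 0.384). Heart 1 had the lowest heart values of C3, C4b and Serping1. It was also the lowest heart array for the summed interferon level, 126 against 665 and 572, and for the summed fibroblast markers, 512 against 2930 and 2959, and the part of either in the results was not tested.

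Mesothelial markers were low in heart, skin and tail. Clu was called lower in heart and tail but not in skin, and Colec11 in skin and tail but not in heart. Of 9 such markers 8 were called lower in tail, 5 in skin, 5 in heart and 1 in kidney. In liver 5 were called higher, in kidney 4, in lung 3 and in gonad 2. Their summed level was 31.2 to 188 in liver, 64.8 to 165 in lung, 25.3 to 48.2 in gonad, 92.4 to 119.7 in kidney, 8.06 to 8.84 in skin, 7.07 to 9.37 in tail and 1.37 to 4.39 in heart. Of 8 endothelial markers Cdh5, Emcn and Egfl7 were called higher in gonad and in liver, where Colec11 was higher. In heart and in tail Cdh5 and Emcn were called lower, but Tek was called higher, by 1.87 in heart and 2.32 in tail. Of 12 hepatocyte markers with a probe 0 were called higher in liver by limma, and Alb, Fga and Cyp2e1 were not above background on any liver array. The part of these cells in the members' values was not tested.

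On the 13 other arrays, where kidney has no array, 25 members passed the F test, beside 47.1% of all genes, and 22 with normexp as well, beside 42.8%. The same 5 members as on 18 arrays were called in heart, 4 higher and 1 lower, beside 3.41% and 4.93% of all genes. Liver had 8 higher, beside 2.25% of all genes, with C1qb, C3ar1, Clu and Fcna added to C1qa, C1qc, C3 and Colec11. Clu in liver was 1.48 ± 0.32 (adjusted p = 0.0273). C6 was lower in liver at -1.29 ± 0.29 (adjusted p = 0.0287), beside 3.23%, but was not above background on any liver array. Gonad had 3 higher and 12 lower, beside 4.17% and 16.5%. Of the 12, C1qa, C1qc, C6, C7, C8a, Cfd, Fcna and Vtn were not above background on gonad 1 or 2, and C4b, Cfb, Hc and Serping1 were.

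Skin on those arrays had 6 higher and 4 lower, beside 19.6% and 3.78%. The 4 lower were Colec11, Cd55, Cd59a and Cfi, and of these Cd55 and Cd59a encode GPI-anchored regulators. Cd59a differed by -1.31 ± 0.22 (adjusted p = 0.00298). Tail had 11 higher and 3 lower, beside 15.8% and 5.03%. With normexp as well the counts were 3 and 4 in gonad, 4 and 1 in heart, 7 and 1 in liver, 1 and 5 in skin and 6 and 3 in tail. The backgrounds were then 3.3% and 2.11% in gonad, 2.66% and 2.82% in heart, 2.09% and 0.821% in liver, 3.16% and 3.54% in skin and 3.77% and 4.14% in tail. The liver count then had Cfb lower, at -1.66 ± 0.36 (adjusted p = 0.0191), in place of C6, and lacked C3ar1. In lung 0 members were called by limma in either of these fits, where 1.3% and 1.29% of all genes were called higher, while at an unadjusted p under 0.05 2 members were higher and 3 lower, beside 7.13% and 7.67% of all genes, and 2 higher and 4 lower with normexp, beside 9.10% and 7.63%.

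**Figure D4:**
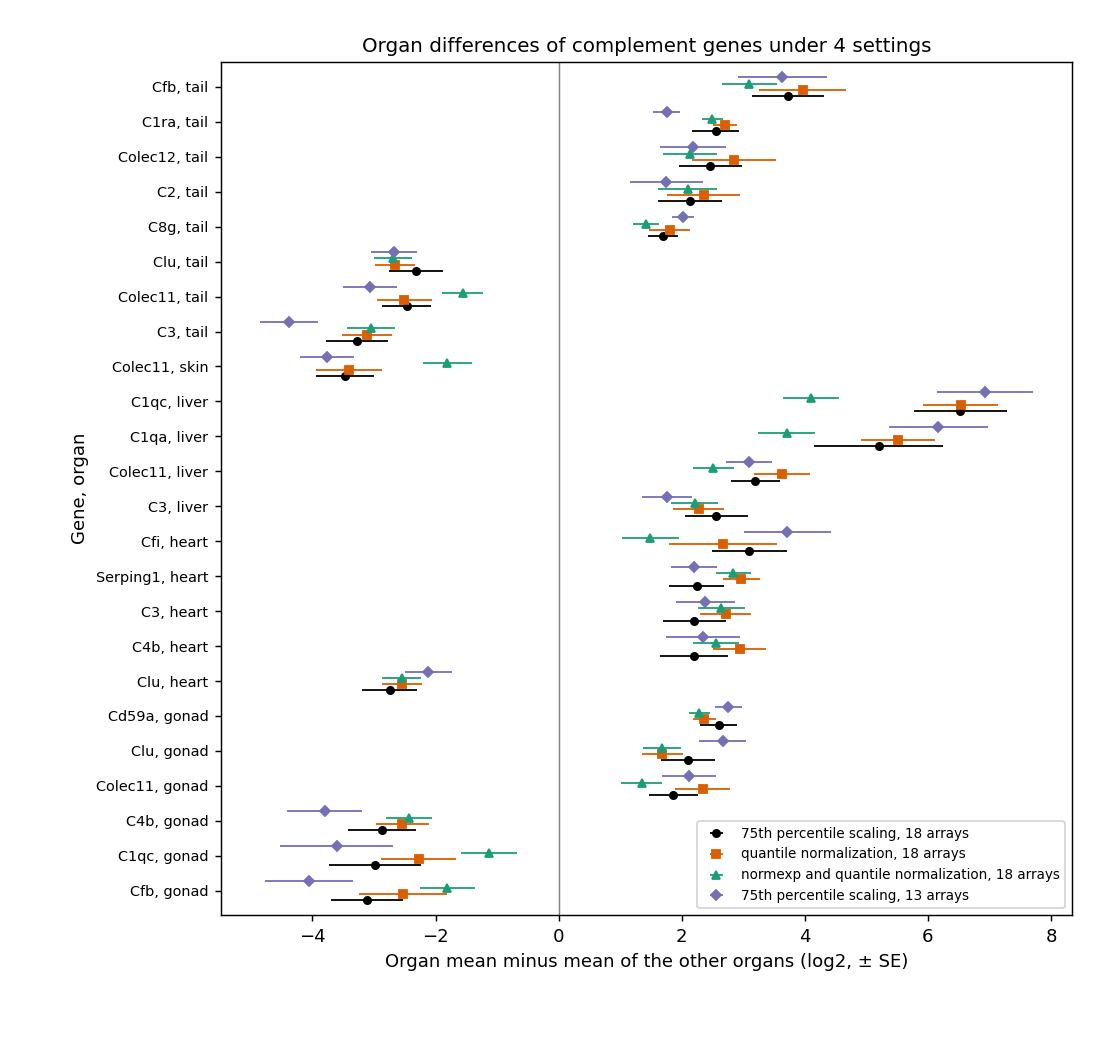
Difference of each organ call outside kidney (rows) from the mean of the other organs (log2, bars are the SE) under 75th percentile scaling, quantile normalization and normexp with quantile normalization on 18 arrays and under 75th percentile scaling on 13 arrays. No point crosses 0, and the values of C1qa and C1qc in liver and of Colec11 in skin and tail are nearer 0 with normexp.

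Beyond the members, 30 other complement genes were counted, 27 had a probe, 25 were tested and 11 passed the F test, beside 34% of all genes. In gonad 2 were called higher, beside 2.12% of all genes, in heart 4 lower, beside 2.39%, and in liver 2 higher, beside 1.21%. Tail had 4 higher and 1 lower, beside 4.08% and 2.19%. Kidney had 8 higher and 9 lower, beside 35.4% and 42.3%. The 8 were C8b, which encodes a chain of C8, Mbl2, a mannose-binding lectin gene, the carboxypeptidase genes Cpn1, Cpn2 and Cpb2, and Csmd1, Csmd3 and Susd4, from 1.41 ± 0.54 for Cpn2 to 4.58 ± 1.01 for Cpn1. The 9 were C1rb, C1s2, C1rl, Cd59b, Itgam, C1qbp, Pros1, Calr, the calreticulin gene, and Thbd, from -1.71 ± 0.52 for C1qbp to -4.17 ± 0.45 for C1s2. Itgam, a chain of a receptor for C3 fragments, and Cpn1, a subunit of carboxypeptidase N, passed the F test (adjusted p = 0.0414 and 0.0489), and outside kidney neither was called.

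Tail was higher for C1rb at 2.01 ± 0.33 (adjusted p = 0.00174), for C1rl, a relative of C1r, at 1.68 ± 0.31 (adjusted p = 0.00363) and for Pros1, the protein S gene, at 2.01 ± 0.35 (adjusted p = 0.00251). On all 3 genes the tail arrays were above all others. Cd59b in tail, at 2.08 ± 0.57 (adjusted p = 0.0454), lost the call with quantile normalization (1.66 (adjusted p = 0.313)), normexp, a slide or replicate block and without any 1 of 13 arrays. Cd93, a receptor once taken for a C1q receptor and found on endothelium and myeloid cells, was higher in gonad at 2.84 ± 0.46 (adjusted p = 0.00285) and liver at 3.37 ± 0.46 (adjusted p = 0.00188) and lower in tail at -2.86 ± 0.46 (adjusted p = 0.00137). Its heart difference of -1.77 ± 0.46 (adjusted p = 0.0463) lost the call with quantile normalization, with the slide as a block and without any 1 of 14 arrays.

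Vsig4, the complement receptor of tissue macrophages, was higher in liver at 5.39 ± 1.18 (adjusted p = 0.0341). It lost the call at 4.33 (adjusted p = 0.248) without liver 1 and 5.15 (adjusted p = 0.182) without liver 2, without either array of kidney or skin, without tail 1 or tail 3, and with the replicate number as a block, and was 3.49 with normexp. C1s2 was higher in gonad at 1.91 ± 0.38 (adjusted p = 0.0127) and lower in heart at -1.86 ± 0.38 (adjusted p = 0.0112), but the mean of its 2 probes was not called in either organ. Its gonad call was also lost at 1.62 (adjusted p = 0.162) without gonad 1 and 1.90 (adjusted p = 0.0956) without gonad 2. In heart Thbd, the thrombomodulin gene, was lower at -2.34 ± 0.39 (adjusted p = 0.0027) and Susd4, a complement inhibitor gene, at -1.53 ± 0.30 (adjusted p = 0.00944). Susd4 lost the call without heart 2 or heart 3 (adjusted p = 0.0545 and 0.0603) and on the 13 other arrays.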

How the data were processed

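Per the file headers, each sample was read as 1 colour on an Agilent array with Feature Extraction 11.0.1.1, and the deposited processed signal is a spot intensity that the software background-subtracted and did not scale between arrays. The deposited raw median and local background intensity served the normexp alternative. The deposited value table holds intensity equal to the raw median signal in 18 of its columns, and it was used as an alternative with all 19 samples. Flags of 0 or 1, per the file headers, mark spots well above background, saturated spots and outliers. Any other preparation is not given in the sources used here.

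From these, control spots were left out, 2023 probe values with outlier flags were set to missing, and log2 of the processed signal was taken less the 75th percentile of 55681 probes on each array. Probes were named through RefSeq accessions, 27235 of them, for 20660 genes. A gene was read by its brightest probe without a missing value (20180 genes), and 457 genes above background on fewer than 2 arrays were left out, which left 19723. The 7 organ means were fitted to 18 arrays with limma 3.58.1 (R 4.3.3), with Benjamini-Hochberg adjustment over all genes tested, and was checked on simulated data. An organ was set against the 6 others, and all adjusted p-values in the text are from limma.

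All arrays' values are given for members that passed the F test or a contrast and for members above background on some arrays only; other pathway genes are named where they passed, except 1 that is not reported here. The members, the lists of other genes and the tests were chosen with earlier results of these data known. The alternatives were normexp (offset 50) with quantile normalization, quantile normalization, keeping dim probes, averaging the probes of a gene, slide or replicate number as a block, the value table, leaving out the 5 high-background arrays, the array floor (log2 of the negative control signal) as a covariate, and leaving out each array. After the data were seen, normexp without the 5 arrays and keeping probes with missing values were added. Promoters are from RefSeq, GRCm38.p6, and 25 of the 35 members had one. Figures were drawn with matplotlib 3.10.9 and tables with pandas 2.3.3, in Python 3.11.15.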

Additional observations from a re-analysis of the deposited data

How the results depend on the processing

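Of the 47 calls of a member in an organ, 47 held with no filter on dim probes, 46 with the mean of a gene's probes, 46 with the slide as a block, 46 with probes that lack a value kept, 42 on the value table, and 34 each with quantile normalization and with normexp. Without the 5 high-background arrays the 24 calls outside kidney all held, and 23 held with normexp as well. In the fits that left out 1 array each, 753 calls held, 93 were lost and 0 turned. With the array floor as a covariate 0 members were called in kidney and 3 in skin, 23 of the 47 calls held, and these kidney values turned: Masp1 -0.50, Masp2 -0.88, Fcnb -0.82, Cfp -0.22, Hc -0.58, C6 -1.36, C7 -1.39, C8a -1.54, C9 -0.96, Cr2 -1.51 and Vtn -0.38. Colec10 in kidney turned to -0.19 with normexp and -0.40 with quantile normalization. Of all genes 3.27% were called higher and 2.63% lower in skin with that covariate. Skin had 2 calls with quantile normalization, beside 1.12% of all genes higher and 1.05% lower. It had 10 calls without the 5 arrays and 6 with normexp as well, beside the shares given above. Gonad had 15 calls without the 5 arrays, tail 14, and liver 9, or 8 with normexp. On the value table lung had 2 calls, C3 and C4b, both higher. Leaving out 1 array gave 12 to 29 members by the F test, 1 to 13 calls in gonad, 1 to 7 in heart, 4 to 25 in kidney, 2 to 6 in liver, 0 to 1 in lung, 0 to 5 in skin and 5 to 9 in tail. With the replicate number as a block 16 members passed the F test, heart had 4 calls, and the calls of C4b in heart (2.16) and C1qc in gonad (-2.88) were lost. The F test share of all genes also moved, from 26.6% with the array floor covariate to 47.1% without the 5 arrays. Shares of all genes called are not given for the value table, the replicate block or the fits without 1 array. Counts from those fits are therefore not a result about the members. Deviations of same-numbered samples from their organ means correlated at -0.85 to 0.78 (median -0.037, 46 pairs) and others at -0.84 to 0.90 (median 0.017, 92 pairs). These deviations are taken from means of 2 or 3 arrays, so they cannot tell whether the numbers pair the samples. The causes of these changes were not tested. Signal over background limits the dim members, whose values at background have no order.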
